A study of Nothobranchius furzeri with 15 samples.

Results

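Of the 1810 circular RNAs (circRNAs) counted in killifish brain and muscle, 31 came from host genes named after families that regulate small GTPases. Small GTPases, among them the Ras, Arf and Rab families, switch between a GTP-bound and a GDP-bound state and steer the actin cytoskeleton, cell signalling and membrane traffic. Guanine nucleotide exchange factors (GEFs) load them with GTP, and GTPase-activating proteins (GAPs) speed the hydrolysis that turns them off. In neurons these regulators are known for work on axon growth, dendritic spines and synaptic vesicles, and in muscle for myoblast fusion. CircRNAs are closed loops formed when splicing runs backwards and ties an exon to one that lies before it, and they are recognised by reads that span this back-spliced join.

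The host genes considered here were those whose symbol in the deposited table began with a name of a GEF or GAP family (arhgef, arhgap, dock, tiam, srgap, rasgrp, ralgap, iqsec, acap, arap, asap, tbc1d, dennd and similar stems) or with rab. The choice used names only, not read counts. It held 31 of 1810 circRNAs, from 25 of 1262 host genes. The rab stem brought in rab6b, which is itself a GTPase, and rab11fip4, an effector that binds Rab11, so 28 of the 31 come from GEF or GAP genes (17 from GEFs and 11 from GAPs). Hosts listed only by a LOC identifier were not included. Roles given below are those known from mammals, and teleost paralogs of similar sequence may share reads.

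Ribosome-depleted total RNA had been sequenced from dissected brain and muscle of GRZ-AD, a strain of the turquoise killifish (Nothobranchius furzeri), which is a short-lived African fish used in research on ageing. Brain was sampled at 3.5, 8.5 and 14 weeks of age with 3 libraries per age, and muscle at the same ages with 2 libraries per age. All 15 libraries came from the same strain, and the labels name no treatment. For each circRNA the authors deposited a count of circular junction reads and a count of linear reads at its position.

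At the 1810 circRNA positions, the libraries held 2095 to 4400 circular and 80405 to 135698 linear reads in brain. In muscle they held 1343 to 4269 circular and 76515 to 122098 linear reads. These totals are sums over the positions, not all reads sequenced, and "all circular reads" and "all linear reads" below mean them. CPM below are reads per 1000000 of the linear total of the library after scaling by TMM factors. The tissue labels matched their markers. All 21 positions in neuronal marker genes had more linear CPM in brain (31416 to 39385 summed per brain library, against 282 to 1059 per muscle library), and none of the 22 positions in skeletal muscle genes did (1067 to 15255 summed per brain library, against 478887 to 608249 per muscle library). Glial markers (4 positions) were also all higher in brain, and the only marker position of other cell types, of 1 gene, spanned 90.6 to 216 in brain libraries and 69.1 to 492.8 in muscle libraries. Whether a difference between such bulk samples reflects fewer cells of a type or less RNA per cell cannot be told apart.

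The 31 circRNAs were exonic loops of low abundance. Both ends lay in annotated exons in all 31, against 80.9% of all 1810. The choice took only hosts with a gene symbol, which not all of the 1810 had, so these shares are not from like sets. The distance from start to end on the genome, in the files' own coordinates, had a median of 6292 bases, against 5096 for all circRNAs, and the longest was 40531 bases (arap2). Together they had 354 circular reads. The detected ones had a median of 9 circular reads over the 15 libraries, against 10 for all detected circRNAs, and the most read, arhgap5, had 34. No library held more than 8 reads of any of them.

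Among the 31, 15 (48.4%) had circular reads in brain libraries only, 1 (3.23%, arhgap32) in muscle libraries only and 13 (41.9%) in both, while 2, dock5 among them, had none. For all 1810 circRNAs the shares were 43.4% brain only, 7.73% muscle only and 41.3% both. Brain had 9 libraries and muscle 6, and most circRNAs had few reads, so a count by tissue of detection leans towards brain.

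Hosts of different roles and families differed in how many circular reads they had in each tissue. Ras regulators (4 circRNAs) had 58 reads in brain and 5 in muscle. Arf regulators (5 circRNAs) had 27 in brain and 6 in muscle. The Rab group (5 circRNAs) had 37 in brain and 0 in muscle. By role, GEF hosts had 124 reads in brain and 69 in muscle, and GAP hosts had 97 in brain and 32 in muscle. The dock hosts alone, which are GEFs for Rac and Cdc42, had 58 reads in brain and 26 in muscle.

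**Figure D1:**
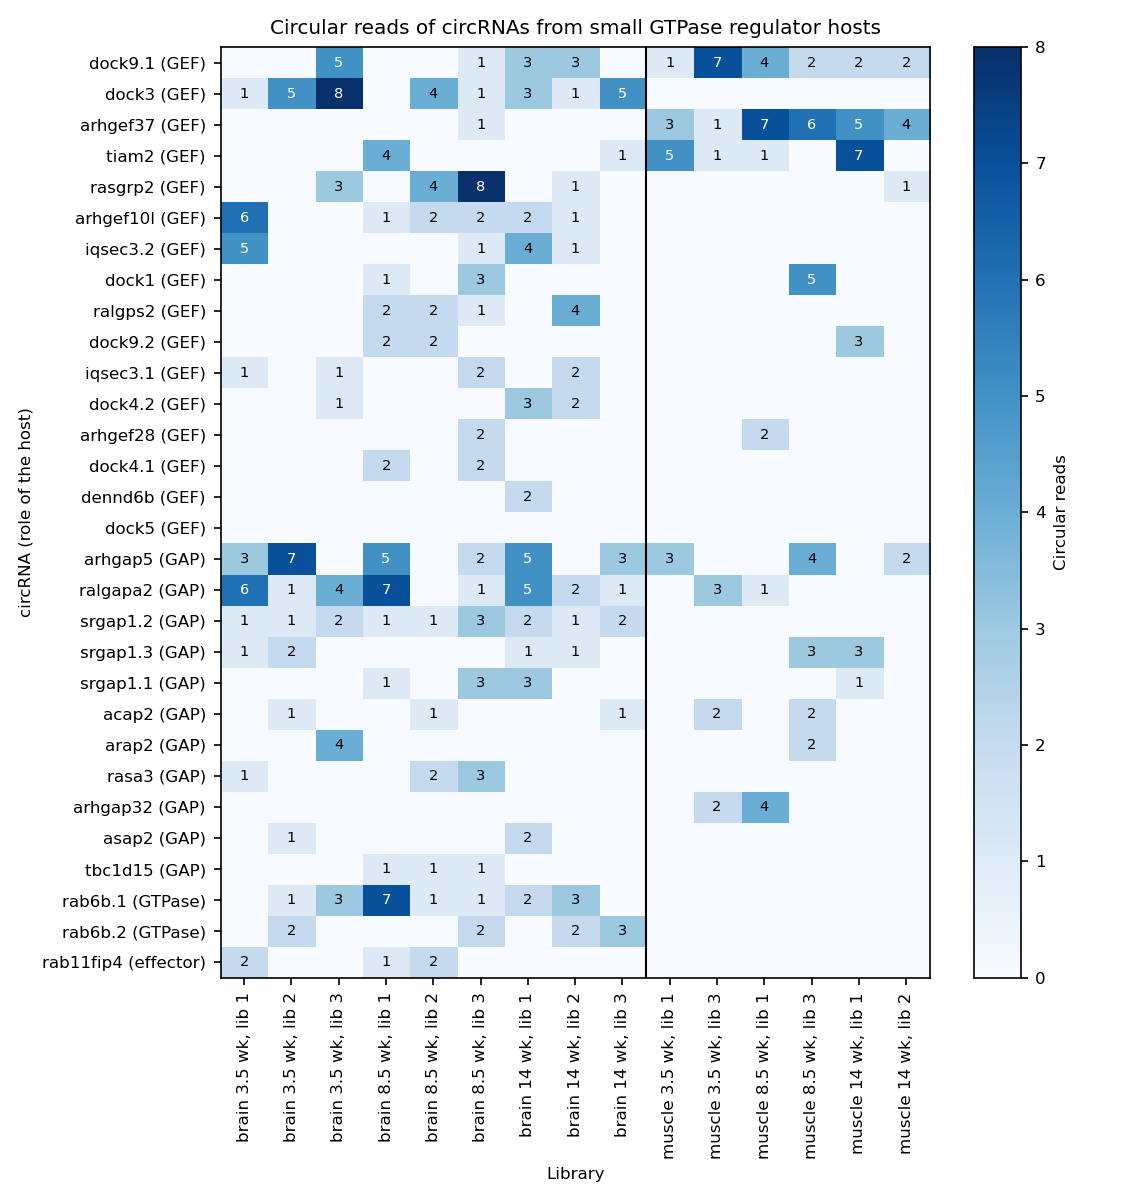
Circular reads of the circRNAs (rows, grouped by the role of the host) in each of the 15 libraries (columns, with brain left of the vertical line and ages in order within each tissue); blank cells are 0 reads and the colour scale runs to 8 reads. The muscle columns are filled mainly in a few rows, arhgef37, dock9.1 and tiam2 among them, and the rab6b and rab11fip4 rows are empty there.

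Of the 31 circRNAs, 12 reached 10 circular reads over the 15 libraries and could be tested between tissues. Circular reads of 3 of these 12 were lower in brain than in muscle, and none were higher, in edgeR quasi-likelihood tests with Benjamini-Hochberg adjustment over all 896 circRNAs tested. The background in the same comparison was 23.1% of all tested called, 14.7% lower in brain and 8.37% higher. A count of 3 in 12 is near that share. All 3 come from GEF genes, as do 17 of the 31 circRNAs. Dock3, arhgef10l, rasgrp2 and iqsec3.2, also tested and from GEF genes, were not called. Fitted log2 differences over the 12 had a median of 1.66, against 1.16 over all tested. With the 5 of the 12 that had no muscle read set to the lower bound of their fold, the median of the 12 was -0.15. The 1.16 over all tested holds no such bounds, so the -0.15 cannot be set against it.

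Arhgef37, a predicted GEF, had the clearest tissue difference. Its circRNA (chromosome 2, 33972916 to 33980812, minus strand) had 1 read in 1 of the 9 brain libraries, against 3 and 1 reads in the muscle libraries at 3.5 weeks, 7 and 6 at 8.5 weeks, and 5 and 4 at 14 weeks. Every muscle library held it, and only 1 muscle library was as low as the highest brain library. On counts scaled to the linear library size the ratio of brain to muscle was 0.0084, with an exact interval from counting error of 0.000205 to 0.0511. The fitted log2 difference was -5.63 with an SE of 0.95 and an edgeR adjusted p of 6.14e-08. Its size depends on a prior count, because the brain libraries at 3.5 and 14 weeks had no read. It was -4.45 with an adjusted p of 0.000152 on linear library totals, and leaving out any library kept the adjusted p between 4.98e-08 and 0.00054.

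Tiam2, a Rac GEF, and dock9, a Cdc42 GEF, followed with smaller counts. The circRNA dock9.1 (chromosome 9, 14667360 to 14669025, minus strand) had 12 reads over the brain libraries (lowest 0, median 0, highest 5), against 18 over the muscle libraries (lowest 1, median 2, highest 7). The tiam2 circRNA (chromosome 18, 29416902 to 29420236, plus strand) had 5 reads in brain (lowest 0, median 0, highest 4), against 14 in muscle (lowest 0, median 1, highest 7). The library counts overlapped for both. Scaled to the TMM library sizes, the ratio of brain to muscle was 0.146 for dock9.1 (counting interval 0.0640 to 0.319) and 0.0780 for tiam2 (0.0220 to 0.229). The log2 difference was -2.87 (SE 0.85, adjusted p = 0.00481, edgeR) for dock9.1 and -3.45 (SE 1.17, adjusted p = 0.0166, edgeR) for tiam2.

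The tiam2 and dock9.1 calls depended on settings. On linear totals without TMM factors the adjusted p was 0.147 for dock9.1 and 0.0913 for tiam2 (edgeR). Without muscle library 3 at 3.5 weeks the log2 difference of dock9.1 was -2.31 (edgeR adjusted p = 0.164). Without muscle library 1 at 3.5, 8.5 or 14 weeks that of tiam2 was -2.89, -2.45 and -1.39. Removing muscle library 1 at 8.5 or 14 weeks left tiam2 no muscle read at that age. Brain had none at 3.5 weeks in any fit, so the tiam2 call on all libraries also rests on an empty group. Sizes fitted with empty groups depend on a prior count, and each of these removals left 1 muscle library at that age. On all libraries DESeq2 did not call tiam2 (log2 -3.31, adjusted p = 0.128).

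Dock3, a Rac GEF that is enriched in neurons, stood at the other end. Its circRNA (chromosome 14, 35929292 to 35936968, minus strand) had 28 reads in brain, in 8 of 9 libraries (lowest 0, median 3, highest 8), against 0 reads in all 6 muscle libraries. Against a floor of 3 counts over the muscle libraries this is at least 2.04-fold higher in brain on the TMM scale and at least 5.82-fold higher on linear totals. It missed the threshold on the TMM scale (edgeR adjusted p = 0.0514) and passed on linear totals (0.00151).

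The remaining brain-rich circRNAs likewise turned on the scaling. Srgap1.2, from a GAP of Slit-Robo signalling, had 14 reads and was found in all 9 brain libraries, against 0 in muscle. Arhgef10l, a GEF, had 14 reads in brain against 0 in muscle, and rab6b.1, from a Golgi Rab abundant in neurons, had 18 against 0. Ralgapa2, a catalytic subunit of the Ral GAP complex, had 27 reads in brain against 4 in muscle. None of these passed on the TMM scale (edgeR adjusted p of 0.179 for srgap1.2, 0.193 for arhgef10l, 0.142 for rab6b.1 and 0.395 for ralgapa2). All 4 passed as higher in brain on linear totals (adjusted p of 0.0239 for srgap1.2, 0.0279 for arhgef10l, 0.0146 for rab6b.1 and 0.0373 for ralgapa2). The choice of scaling therefore moved the split over the 12 tested to 5 higher and 1 lower in brain on linear totals, against 0 higher and 3 lower with TMM factors. On linear totals, 297 of all 896 circRNAs tested (33.1%) were called higher in brain and 90 lower. The split of 5 and 1 in 12 is near that background.

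TMM factors of the linear counts were 1.475 to 1.585 in brain and 0.479 to 0.601 in muscle. Leaving them out moved the median log2 difference of all positions to 2.19, against 0.72 with them, for linear reads, and to 2.00 against 1.16 for circular reads. Directions between tissues are therefore relative to the scaling named, whereas the circular share below is a ratio within each library.

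The other circRNAs with 10 or more reads did not pass under TMM factors or linear totals. Arhgap5, a GAP, had 25 reads in brain (lowest 0, median 3, highest 7) against 9 in muscle (lowest 0, median 1, highest 4). Its log2 difference was -0.71 with TMM factors (SE 0.89, edgeR adjusted p = 0.632) and 0.74 on linear totals (adjusted p = 0.508). Rasgrp2, a calcium- and diacylglycerol-regulated GEF for Rap1, had 16 reads in brain against 1 in muscle, a ratio of 3.49 with a counting interval of 0.543 to 146.5 on the TMM scale. Iqsec3.2, from a GEF for Arf of inhibitory synapses, had 11 in brain against 0 in muscle, and srgap1.3 had 5 in brain against 6 in muscle. The test gave srgap1.3 a p of 1.0 because it had no read at 8.5 weeks in brain and at 3.5 weeks in muscle, so it says nothing about that circRNA.

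The 19 circRNAs under 10 reads were described by count only. Of these, rab6b.2 and ralgps2 (a Ral GEF) had 9 reads in brain and 0 in muscle each, and rasa3 (a Ras and Rap GAP), dock4.2 and iqsec3.1 had 6 and 0 each. Arhgap32, a neuronal GAP in mammals, had 0 circular reads in 9 brain libraries, against 6 in muscle, in 2 libraries. Its share of 0 among 207 linear reads in brain allows a circular share of up to 1.45% by the 3-count limit and 1.77% by the exact interval, while the muscle share was 13.3% (exact interval 5.05% to 26.8%). The Rac GEF dock1, known for its part in myoblast fusion, had 4 reads in brain and 5 in muscle, the 5 in 1 library. Arap2, acap2, arhgef28 and dock9.2 had 2 to 4 reads in each tissue, and srgap1.1 had 7 in brain and 1 in muscle. Rab11fip4, dock4.1, asap2, tbc1d15 and dennd6b had 2 to 5 reads in brain and 0 in muscle.

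The circular share is the percentage that circular reads make up of circular plus linear reads at a position. It was lower in brain than in muscle for arhgef37. Over pooled libraries its share was 0.345% in brain (exact 95% interval 0.00873% to 1.91%), against 13.9% in muscle (9.29% to 19.7%). The log2 difference of the circular to linear ratio was -4.28 (SE 0.99, edgeR adjusted p = 0.001). It was the only one called of the 12 tested. The background was 3.92% of the 893 circRNAs tested, all of those called lower in brain.

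Dock9.1 and tiam2 had wider intervals. The share of dock9.1 was 6.78% in brain (3.55% to 11.5%), against 15.6% in muscle (9.55% to 23.6%), with a log2 difference of -1.47 (SE 0.83, edgeR adjusted p = 0.619). For tiam2 it was 4.59% in brain (1.51% to 10.4%), against 14.4% in muscle (8.12% to 23.0%), with a log2 difference of -1.57 (SE 0.94, adjusted p = 0.721). Intervals cover counting error only.

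For arhgap5 and ralgapa2 no difference was detectable at this depth. The share of arhgap5 was 5.05% in brain (3.30% to 7.37%) and 6.43% in muscle (2.98% to 11.9%). That of ralgapa2 was 9.75% in brain (6.52% to 13.9%) and 10.8% in muscle (3.03% to 25.4%). The intervals overlap widely for both. Dock3 had a share of 5.56% in brain (3.72% to 7.93%) and, with neither circular nor linear reads in muscle, none could be given there. The highest pooled share of the set was that of arap2, an Arf GAP, with 20.0% of 20 reads in brain (5.73% to 43.7%) and 16.7% of 12 reads in muscle (2.09% to 48.4%). All 4 circular reads in brain were in library 3 at 3.5 weeks and both in muscle were in library 3 at 8.5 weeks, so each share rests on 1 library.

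**Figure D2:**
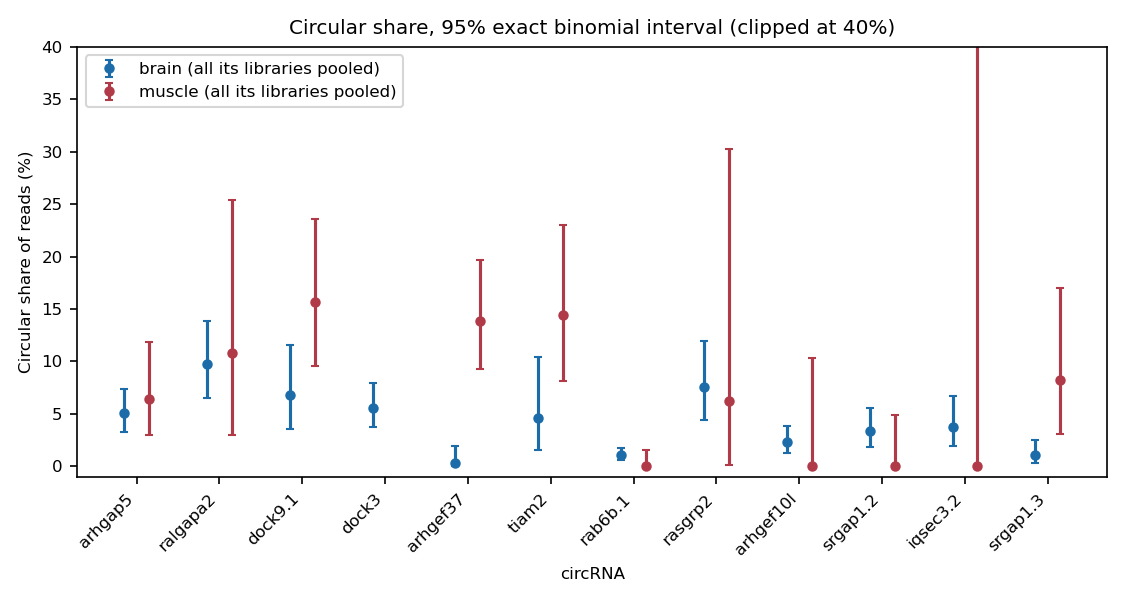
Circular share (percent of circular plus linear reads) of the 12 circRNAs with 10 or more circular reads, in brain (blue, left) and muscle (red, right), with all libraries of a tissue pooled and exact 95% binomial intervals clipped at 40%. Arhgef37 lies at 0.345% in brain and 13.9% in muscle; dock3 has no muscle point because it had no muscle reads.

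Linear reads at the same positions showed which hosts were read in each tissue. With TMM factors, 15 of 31 positions rose in brain relative to muscle and 7 fell (edgeR, adjusted p under 0.05), beside a background of 72.8% called among 1771 positions tested, 47.9% higher and 24.8% lower. The share called in the set, 71.0%, is near that background. The median log2 difference was 0.26 for the 31 and 0.72 for all positions. On linear totals without TMM the split was 24 higher and 0 lower, beside 77.4% higher and 10.7% lower of all positions tested. The medians were then 1.76 for the 31 and 2.19 for all positions. Positions within a host share linear reads and are not independent: iqsec3.1 and iqsec3.2, dock4.1 and dock4.2, and srgap1.2 and srgap1.3 have the same end, and rab6b.1 and rab6b.2 overlap by 111 bases.

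Among the dock GEFs, dock3 and dock4 rose in brain. Dock3 had 240 to 435 CPM in the 9 brain libraries with a median of 290, against 0 reads in all 6 muscle libraries. Its 476 brain reads are at least 34.7-fold higher than the muscle floor of 3 counts on the TMM scale and at least 99.0-fold higher on linear totals (edgeR adjusted p = 1.81e-12). The position dock4.2, from a Rac GEF, had 302 to 503 CPM in brain with a median of 433, against 34.6 to 148 CPM in muscle with a median of 65.5. Its groups did not overlap, and the log2 difference was 2.51 (SE 0.25, adjusted p = 6.79e-11, edgeR).

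Arhgef10l rose as well. It had 324 to 462 CPM in brain with a median of 402, against 17.3 to 180 CPM in muscle with a median of 103, a log2 difference of 2.00 (SE 0.27, edgeR adjusted p = 4.15e-08). It kept its direction on linear totals.

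GEF hosts, which gave 17 of the 31 positions, also made up most of those higher in muscle. The direction of these muscle-rich positions depended on the scaling. Other GEF hosts, dock3, dock4 and arhgef10l among them, were higher in brain. With TMM factors, dock1, dock5, dock9.1, dock9.2, arhgef37 and tiam2 fell in brain relative to muscle, as did tbc1d15, a Rab GAP. Arhgef37 had 156 to 229 CPM in brain with a median of 193, against 242 to 616 CPM in muscle with a median of 540. The groups did not overlap, and the log2 difference was -1.33 (SE 0.19, edgeR adjusted p = 9.84e-08). Dock1 had 100.1 to 187 CPM in brain with a median of 139, against 190.1 to 695 CPM in muscle with a median of 443, a log2 difference of -1.64 (SE 0.24, adjusted p = 2.15e-07). On linear totals the log2 differences were 0.19 for arhgef37, 0.68 for tbc1d15, 0.33 for dock9.2, 0.05 for dock9.1 and 0.00124 for dock5, so these 5 turned direction, and tbc1d15 passed as higher in brain (adjusted p = 0.00642, edgeR). Dock1 and tiam2 kept theirs without passing.

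**Figure D3:**
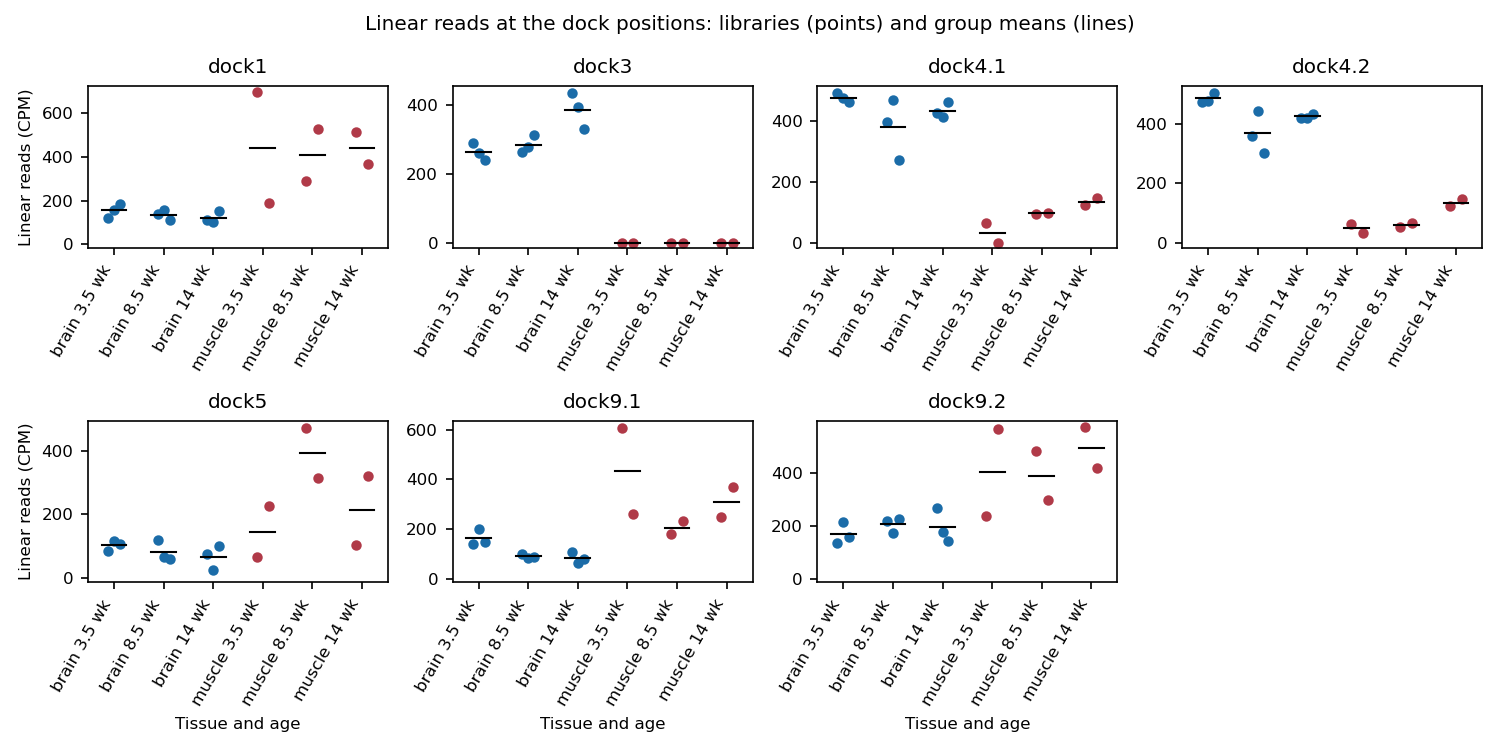
Linear reads (CPM on the TMM scale, vertical axes) at dock positions in each library (points) with group means (lines), for brain (blue) and muscle (red) at 3.5, 8.5 and 14 weeks. Dock3 has no reads in muscle and dock4 is higher in brain, whereas dock1, dock5 and dock9 are higher in muscle on this scale; dock5, dock9.1 and dock9.2 turn direction on linear totals.

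Among the 5 Arf, 5 Rab and 4 Ras positions, 9 rose in brain and 1, tbc1d15, fell, beside 47.9% higher and 24.8% lower of all positions tested. The 9 count both positions of iqsec3 and both of rab6b. Iqsec3.2, the Arf GEF, had 280 linear reads in brain against 1 in muscle, a ratio of 61.1 with a counting interval of 10.9 to 2424 on the TMM scale. Rab11fip4 had 553 linear reads in brain against 9 in muscle (log2 3.90, SE 0.41, edgeR adjusted p = 2.77e-10), and circular reads only in brain, 5 in all. Rab6b.1 had 888 to 1361 CPM in brain with a median of 1043, against 394 to 940 CPM in muscle with a median of 717. Those library ranges overlapped, and the log2 difference was 0.68 (SE 0.15, adjusted p = 0.000208).

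Rab6b thus had linear reads in every muscle library but no circular read there. The 240 linear muscle reads at rab6b.1 allow a circular share of up to 1.25% by the 3-count limit and 1.53% by the exact interval, and the brain share was 1.08% (0.643% to 1.71%), so the absence of circular reads in muscle could not be told from the brain share at this depth. For the Ras hosts, rasgrp2 (log2 1.59, SE 0.38, edgeR adjusted p = 0.000363) and ralgapa2 (0.84, SE 0.32, 0.0188) rose in brain. Ralgps2 (-0.07, adjusted p = 0.729) and rasa3 (0.05, adjusted p = 0.925) did not pass. Of the Arf and Rab hosts, asap2, an Arf GAP, (0.64, 0.0362) and dennd6b, a Rab GEF, (1.33, 0.00246) also rose. Acap2 (-0.27, 0.259) and arap2 (-0.02, 0.801) did not pass. Arap2 had no linear read in muscle at 3.5 weeks, so its -0.02 is no measure of size. Its pooled ratio of brain to muscle was 0.349 (counting interval 0.149 to 0.861) with TMM factors and 0.998 (0.426 to 2.46) on linear totals. The call of asap2 was lost when any 1 of 6 libraries was left out, with edgeR adjusted p of 0.0507 to 0.195 and log2 differences of 0.40 to 0.62. These were brain library 3 at 3.5 and at 8.5 weeks, brain library 1 at 14 weeks, and muscle library 1 at each age. That of ralgapa2 was lost without muscle library 3 at 8.5 weeks (log2 0.55, edgeR adjusted p = 0.0968) or library 1 at 14 weeks (0.76, 0.0536). Without muscle library 1 at 8.5 weeks its log2 difference was 2.59.

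Of the 5 positions in the GAP genes arhgap5, arhgap32 and srgap1, srgap1.3 alone passed (log2 0.58, SE 0.22, edgeR adjusted p = 0.0179). That call was lost without muscle library 1 at 3.5 weeks (log2 0.48, edgeR adjusted p = 0.0581) or at 14 weeks (0.53, 0.0556). The log2 difference was -0.31 for arhgap5, 0.26 for arhgap32, 0.17 for srgap1.1 and 0.22 for srgap1.2, none of which passed. The GEF arhgef28 did not pass either (log2 -0.58, SE 0.32, adjusted p = 0.104). On linear totals all 5 of these GAP positions passed as higher in brain, as did 77.4% of all positions tested.

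**Figure D4:**
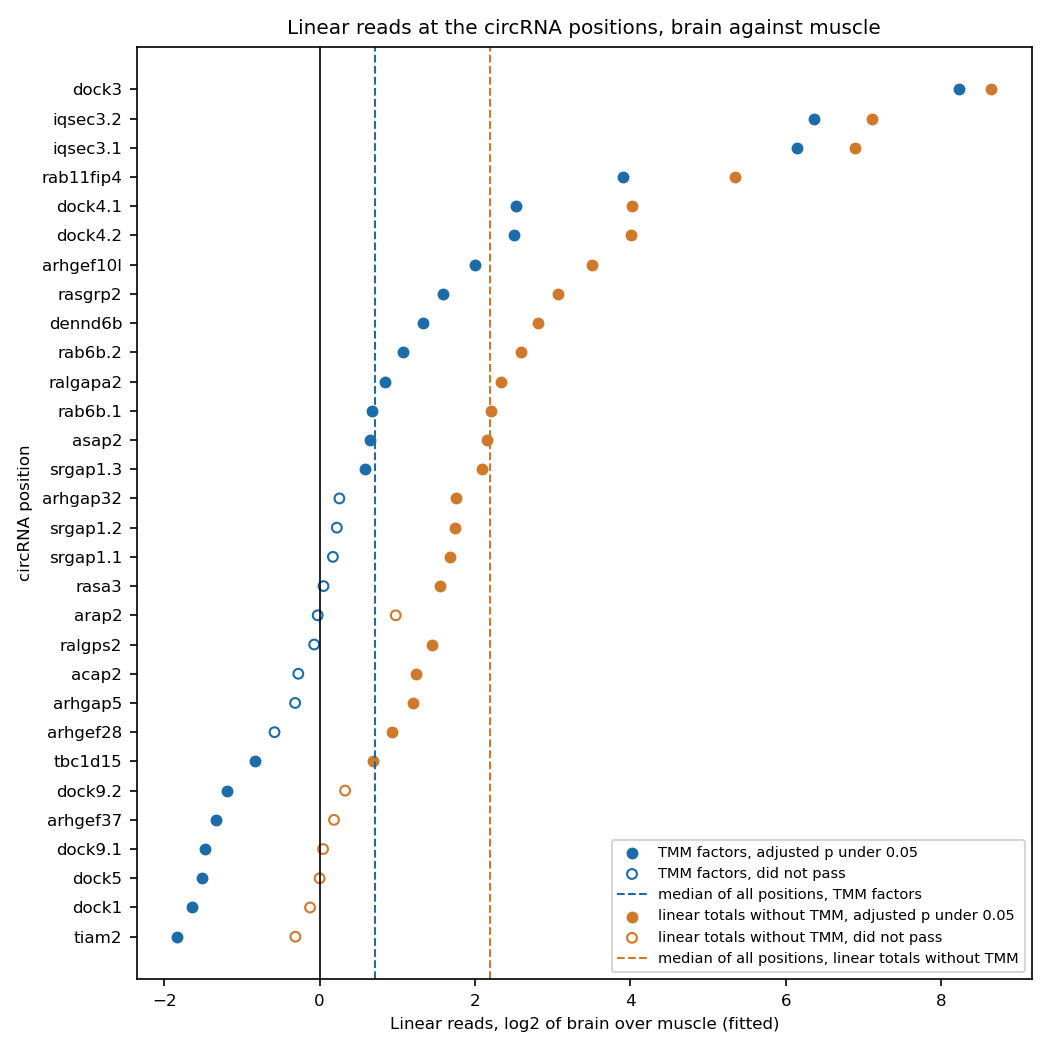
Fitted log2 ratio of brain over muscle for linear reads at the circRNA positions, with TMM factors (blue) and on linear totals (orange); filled points passed an adjusted p under 0.05 and dashed lines mark the medians over all positions, 0.72 and 2.19. Every orange point lies to the right of its blue one; the points of dock3 and iqsec3 rest on 0 or 1 muscle reads and are no measure of size.

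Summed over the 31 positions, circular reads made up 0.926 ± 0.178% of all circular reads in brain (SD, n = 9) and 0.774 ± 0.283% in muscle (SD, n = 6), with ranges that overlapped. Linear reads made up 1.30 ± 0.0535% of all linear reads in brain and 0.361 ± 0.0684% in muscle, and there the ranges were apart (1.22% to 1.39% in brain, 0.263% to 0.434% in muscle). Both sums depend on the scale. With TMM factors the circular sum was 170 ± 42.0 CPM in brain and 308 ± 84.9 CPM in muscle, so that brain was the lower of the 2, and the linear sum was 8526 ± 306 CPM in brain and 6750 ± 817 CPM in muscle. The summed circular share was 1.95 ± 0.455% in brain (range 1.36% to 2.72%) and 4.43 ± 1.33% in muscle (range 2.86% to 6.38%), again apart. The same share over all circRNAs was 2.74 ± 0.438% in brain and 2.28 ± 0.879% in muscle.

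The GEFs arhgef37, dock9.1 and tiam2, picked here for their high muscle counts, supplied 58 of the 101 circular muscle reads and 18 of the 253 circular brain reads. Leaving out members picked in that way lowers the muscle share by construction. Without arhgef37 alone the pooled share was 1.99% in brain (exact interval 1.75% to 2.25%) and 3.55% in muscle (2.80% to 4.43%). Without all 3 it was 1.90% in brain (1.66% to 2.15%) and 2.26% in muscle (1.64% to 3.04%). No p was computed for sums over the set.

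**Figure D5:**
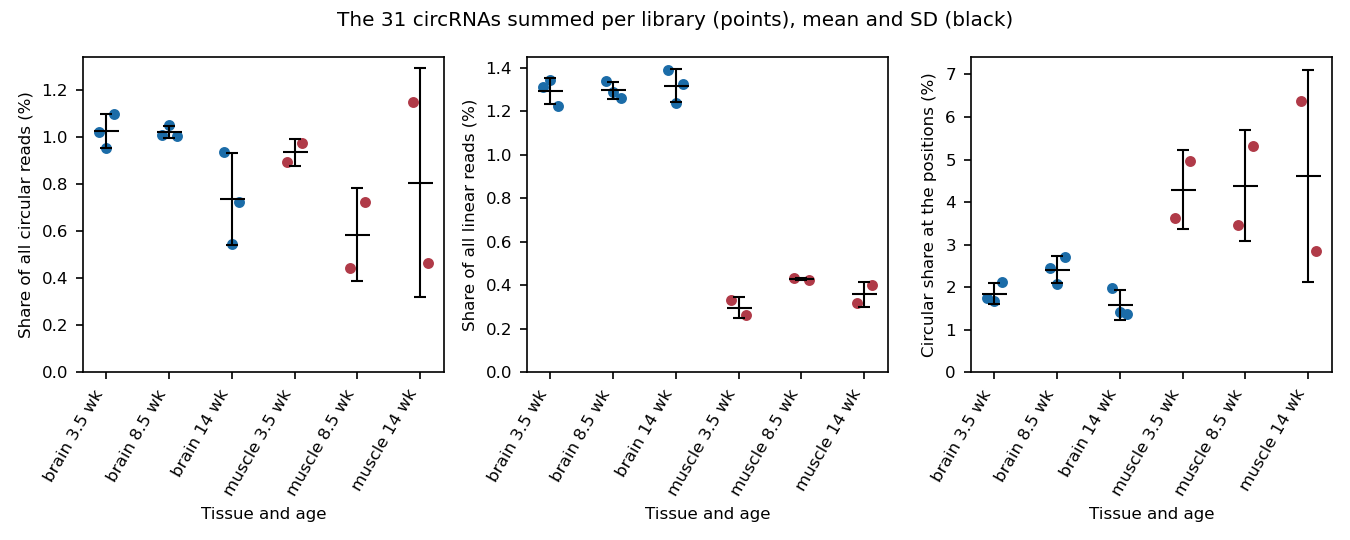
The 31 circRNAs summed per library, as a share of all circular reads (left), of all linear reads (middle) and as circular share at their positions (right); points are libraries, black marks the mean and SD of 3 brain (blue) or 2 muscle (red) libraries per age. The linear share separates the tissues (1.22% to 1.39% in brain, 0.263% to 0.434% in muscle), and the circular share is higher in every muscle library.

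Across ages no circRNA of the set passed the test on circular reads. In brain 9 and in muscle 3 of the 31 reached 10 reads and were tested, and edgeR called none in any of the 3 comparisons of ages in either tissue. The background was 0.156%, 0.0% and 0.156% of 639 tested in brain at 8.5 against 3.5, 14 against 8.5 and 14 against 3.5 weeks, and 1.37%, 0.0% and 0.342% of 292 in muscle. At an unadjusted p under 0.05 there was 1, rasgrp2 at 14 against 8.5 weeks in brain, and DESeq2 called 0. With so few calls anywhere, a count of 0 among 9 or 3 tested is near the background.

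Rasgrp2 had the smallest p of the set in each brain comparison. Its circRNA (chromosome 1, 21654798 to 21674822, minus strand) had 0, 0 and 3 reads in the brain libraries at 3.5 weeks, 0, 4 and 8 at 8.5 weeks, and 0, 1 and 0 at 14 weeks. The ages overlapped, since each had a library with no read. The log2 difference was -3.46 for 14 against 8.5 weeks (SE 1.57, edgeR adjusted p = 0.973) and 2.04 for 8.5 against 3.5 weeks (SE 1.41, adjusted p = 0.71). For 14 against 3.5 weeks it was -1.42 (adjusted p = 0.93) and turned to 1.73 without brain library 3 at 3.5 weeks.

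Dock3 and the muscle-rich circRNAs did not pass between ages either, and the libraries of dock3, dock9.1 and tiam2 overlapped between ages. Dock3 had 1, 5 and 8 circular reads in brain at 3.5 weeks, 0, 4 and 1 at 8.5 weeks, and 3, 1 and 5 at 14 weeks (log2 -0.71 at 14 against 3.5 weeks, SE 1.00, edgeR adjusted p = 0.954). In muscle, tiam2 had 5 and 1 reads at 3.5 weeks, 1 and 0 at 8.5 weeks, and 7 and 0 at 14 weeks. Dock9.1 had 1 and 7, then 4 and 2, then 2 and 2 at the same ages. The log2 difference at 14 against 3.5 weeks in muscle was -0.88 for dock9.1 (SE 1.68, edgeR adjusted p = 0.876) and -0.07 for tiam2 (SE 2.02, 1.0). Arhgef37 had 65.1 and 17.3 circular CPM (TMM scale) in muscle at 3.5 weeks, 97.0 and 98.9 at 8.5 weeks, and 103.1 and 98.6 at 14 weeks. Both libraries at 3.5 weeks, with 3 and 1 reads, lay below the 4 later ones, with 4 to 7 reads. The log2 difference was 1.10 at 8.5 against 3.5 weeks (SE 1.42, edgeR adjusted p = 0.708) and 1.02 at 14 against 3.5 weeks (SE 1.44, adjusted p = 0.78). Over all 292 circRNAs tested in muscle the median log2 difference was 1.23 and 0.74 in these comparisons, so a rise from 3.5 weeks was not particular to arhgef37.

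Summed over the set, the 31 circRNAs had 79, 97 and 77 circular reads in brain at 3.5, 8.5 and 14 weeks and 28, 43 and 30 in muscle. As a share of all circular reads they were at 1.02 ± 0.0732%, 1.02 ± 0.0265% and 0.735 ± 0.194% in brain at those ages (SD, n = 3 each), and at 0.933 ± 0.0559%, 0.584 ± 0.197% and 0.805 ± 0.485% in muscle (SD, n = 2 each). Their summed circular share in brain was 1.85 ± 0.250%, 2.42 ± 0.321% and 1.58 ± 0.344%. Over all circRNAs the brain share was 2.31 ± 0.0802%, 3.06 ± 0.455% and 2.84 ± 0.345% at the same ages. In muscle the summed circular share of the set was 4.29 ± 0.931%, 4.39 ± 1.31% and 4.62 ± 2.49%. Over all circRNAs the muscle share was 1.38 ± 0.00829%, 3.28 ± 0.138% and 2.16 ± 0.448%. No test was run on these sums.

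For the circular share, 9 were tested in brain and 3 in muscle, and none was called at any age (edgeR and a beta-binomial test). The background was 0.0% of 638 tested in each brain comparison and 0.346%, 0.0% and 0.0% of 289 in muscle, for 8.5 against 3.5, 14 against 8.5 and 14 against 3.5 weeks. At an unadjusted p under 0.05 there was again only rasgrp2, at 14 against 8.5 weeks in brain (log2 -3.12, SE 1.40, edgeR adjusted p = 0.814). The change to 14 weeks was not called different between brain and muscle for any of 12 tested (edgeR interaction, background 0.0% of 896, none at an unadjusted p under 0.05, none with DESeq2). For the 5 of the 12 that had no circular read in muscle, no change there could be estimated. The smallest edgeR adjusted p was 0.941, for srgap1.3. It had no muscle read at 3.5 weeks, so its fitted difference is no measure of size.

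Linear reads, which were deeper, gave no call either. In brain 31 and in muscle 27 positions were tested, and edgeR and DESeq2 called 0 in every comparison of ages. The background was 2.62%, 0.0% and 2.85% of 1753 positions in brain and 5.27%, 0.479% and 2.71% of 1253 in muscle, in the same order of ages. At an unadjusted p under 0.05 there were 3, 2 and 4 in brain and 1, 1 and 2 in muscle. Against such a background, a count of 0 among 31 or 27 positions says little about the set.

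Dock3 and dock9.1 had the smallest unadjusted p in brain, in opposite directions. Dock3 had 290, 260 and 240 CPM at 3.5 weeks, 265, 279 and 314 at 8.5 weeks, and 435, 396 and 332 at 14 weeks. All 3 libraries at 14 weeks lay above all others. The log2 difference at 14 against 3.5 weeks was 0.57 (SE 0.19), and it did not pass (edgeR adjusted p = 0.144).

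Dock9.1 had 139, 202 and 146 CPM in brain at 3.5 weeks, 101, 82.1 and 88.7 at 8.5 weeks, and 108, 62.0 and 79.4 at 14 weeks. All 3 libraries at 3.5 weeks lay above the later ones. The log2 difference was -0.94 at 14 against 3.5 weeks (SE 0.31, edgeR adjusted p = 0.143) and -0.80 at 8.5 against 3.5 weeks (SE 0.32, adjusted p = 0.234). In muscle, rab6b.1 had 586 and 847 CPM at 3.5 weeks, 887 and 940 at 8.5 weeks, and 557 and 394 at 14 weeks (log2 -1.05 at 14 against 8.5 weeks, SE 0.39, edgeR adjusted p = 0.488). Dock9.1 in muscle had 608 and 259 CPM at 3.5 weeks, 180 and 231 at 8.5 weeks, and 248 and 370 at 14 weeks (log2 -1.20 at 8.5 against 3.5 weeks, SE 0.58, edgeR adjusted p = 0.273). Arap2 had no linear read in muscle at 3.5 weeks, 0 and 1 reads (0 and 16.5 CPM) at 8.5 weeks, and 5 and 4 reads (103.1 and 98.6 CPM) at 14 weeks. Both libraries at 14 weeks lay above the 4 earlier ones, but the comparison of 14 with 3.5 weeks did not pass (edgeR adjusted p = 0.273).

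Other small p in brain came from hosts of several families, none of them past the threshold. Ralgps2 (log2 -0.38, edgeR adjusted p = 0.28) and dock4.2 (-0.39, adjusted p = 0.306) were lower at 8.5 than at 3.5 weeks. Arhgap32 (-0.65, adjusted p = 0.308) was lower and rab11fip4 (0.43, adjusted p = 0.328) higher at 14 than at 3.5 weeks. Srgap1.3 was lower at 14 than at 8.5 weeks (-0.51, adjusted p = 0.999).

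The authors' deposited tables of p-values for neighbouring ages listed few of these circRNAs. The table of adult against young brain listed 4, old against adult brain 2, adult against young muscle 3, and old against adult muscle 2. None had a p under 0.05 in the authors' deposited tables, beside 14.7%, 6.08%, 25.4% and 7.11% of all circRNAs with a p in those tables. The smallest p of the set in the authors' deposited tables was 0.13, for rasgrp2 in adult against young brain. It was 0.896 for dock3 in old against adult brain, 0.667 for arhgef37 in adult against young muscle, and 0.564 for srgap1.3 in old against adult muscle, again in the authors' deposited tables.

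Of the hosts, 20 had 1 circRNA, 4 had 2 and srgap1 had 3: srgap1.1 with 7 reads in brain and 1 in muscle, srgap1.2 with 14 and 0, and srgap1.3 with 5 and 6. The last 2 share an end and differ in their start, and srgap1.3 had a share of 1.08% in brain (0.352% to 2.502%) and 8.22% in muscle (3.08% to 17.0%), where srgap1.2 allowed up to 4.05% by the 3-count limit and 4.86% by the exact interval. The 2 exact intervals in muscle overlap. Dock9.1 had 30 reads in all, and dock9.2, 31685 bases away, had 7. These contrasts were not tested.

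Other genes of the same pathways, from lists of further regulators, GTPases and effectors drawn up with earlier results of these data known, gave 20, 1 and 19 circRNAs. Among further regulators, 9 were tested for circular reads between tissues and none was called, beside 23.1% of all circRNAs tested. The fits of sbf2.1, rgl2 and gapvd1.2 gave log2 differences of 0.44, -1.46 and -1.86 with an SE of 917, 4064 and 47.3. Those tests say nothing about these circRNAs, so not all of the 9 could have been called. For linear reads 6 of 20 were higher in brain and 5 lower, beside 47.9% higher and 24.8% lower of all positions tested. The most read were bcr (LOC107397213, with GEF and GAP domains; 24 circular reads in brain and 0 in muscle), myo9b (16 and 5), sbf1 (7 and 13), gapvd1.1 (13 and 7) and gapvd1.2 (5 and 15). The only GTPase host, arl13b, had 10 reads in brain and 1 in muscle.

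Of the effectors, 10 were tested between tissues, and 2 rose and 1 fell in circular reads in brain relative to muscle, beside 8.37% higher and 14.7% lower of all circRNAs tested. Both that rose were of cnksr2, a scaffold of Ras signalling (66 reads in brain against 0 in muscle for cnksr2.2, 51 against 0 for cnksr2.1). The 1 that fell was LOC107375145.1, of a host named rilpl1 in the RefSeq table, with 1 read in brain against 161 in muscle (log2 -8.17, SE 0.59, edgeR adjusted p = 3.02e-41). LOC107375145.2, of the same host, did not pass (log2 -0.57, SE 0.79, edgeR adjusted p = 0.688). Linear reads were lower in brain at both positions, with log2 differences of -2.55 and -1.99 with TMM factors. An exoc6b circRNA (LOC107376909.2), of an exocyst subunit, had 44 reads in brain and 20 in muscle. The fits for circular reads of mical2, rims2.2 and mical3a gave an SE of 8272, 5269 and 2308, so those tests say nothing about these circRNAs. For linear reads 12 of the 19 effector positions were higher in brain and 6 lower, beside 47.9% and 24.8% of all positions tested. Both counts hold several positions of the same host, which are not independent: those of rims2 and cnksr2 among the higher, those of exoc6b and rilpl1 among the lower. In the age comparisons the lists gave calls for linear reads of effectors only: cnksr2.1 (log2 1.00, edgeR adjusted p = 0.00441 at 8.5 weeks; 0.95, 0.00578 at 14 weeks) and cnksr2.2 (1.12, 0.00216; 0.87, 0.00804) were higher in brain at these ages than at 3.5 weeks, and mical2, which acts on actin, was higher in muscle at 8.5 than at 3.5 weeks (log2 1.52, SE 0.39, adjusted p = 0.0111, edgeR). Of all positions tested, 2.62% were called at 8.5 and 2.85% at 14 against 3.5 weeks in brain, and 5.27% at 8.5 against 3.5 weeks in muscle.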

How the data were processed

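Tissues were dissected, RNA was taken up in Trizol and ribosomal RNA was removed before stranded libraries were made, per the labels' protocols. STAR 2.5.2b was used, per the submitters' processing notes; which caller, build and annotation the authors used, and how a linear read was defined, is not given in the sources used here. The authors deposited raw counts of circular and of linear reads per circRNA and library, without normalization, and p-values headed bbTest, with nothing per the file headers to say that these were adjusted. No column of per-sample values was left unused (0 columns). Coordinates are those of the files. Names were looked up in a RefSeq table of genes (assembly NfurGRZ-RIMD1), and 11 of the 25 host symbols were in it. CircRNAs of 1 host are numbered in table order.

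Circular reads, linear reads and the ratio of circular to linear reads were each tested over the whole table with quasi-likelihood tests in edgeR 4.0.16 (R 4.3.3). Features needed 10 reads over the libraries compared, and Benjamini-Hochberg adjusted p-values were held to 0.05. Library sizes, with TMM factors, were those of the linear counts. The ages of a tissue were fitted together, and brain minus muscle was averaged over the ages in a fit of all 15 libraries. Shares carry exact (Clopper-Pearson) 95% intervals from SciPy 1.17.1, and folds against 0 reads use a floor of 3 counts over the group; both cover counting error only. The code was tested on simulated data. Alternatives were DESeq2 1.42.0, its size factors, linear totals without TMM, TMM of the circular counts, no filter, 30 reads as the minimum, a beta-binomial test, a replicate block and the removal of each library.

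For 1 of the 31 circRNAs, counted in the totals, no values of its own are reported here. The members and gene lists were chosen with earlier results of these data known. Named are the 10 members with the most circular reads in each tissue, those of hosts with several circRNAs, up to 12 called per direction, the 3 smallest p where fewer than 3 passed, and up to 4 of each further list (with ties); the remaining members were named to account for the set. Nothing in the labels ties libraries to separate animals, and p-values therefore cover only how far these samples spread, in part perhaps for technical reasons. Replicates differed by more than sampling noise (chi-square over degrees of freedom of 2.01 to 5.21 in 12 pairs).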

Additional observations from a re-analysis of the deposited data

Results flagged for a closer look

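Of 76 levels of the set examined (CPM in the 9 brain or 6 muscle libraries), 14 held a library far from the others by Dixon's criterion. Its chance rate of about 1 in 20 holds for normally distributed values. Many of these levels rest on low counts, and all span 3 ages, so the 14 cannot be read as an excess. In circular reads, the brain library 1 at 3.5 weeks stood apart for arhgef10l with 33.4 CPM (6 reads), brain library 1 at 8.5 weeks for rab6b.1 with 44.1 CPM (7 reads) and brain library 3 at 3.5 weeks for dock9.1 with 29.2 CPM (5 reads). Muscle library 3 at 3.5 weeks stood apart for dock9.1 with 121 CPM (7 reads), which is the library whose removal ended the tissue call of dock9.1.

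In linear reads, brain library 3 at 3.5 weeks was far above the others for arap2 with 46.7 CPM, arhgef28 with 199 CPM and tbc1d15 with 234 CPM. Brain library 2 at 3.5 weeks was high for tiam2 with 144 CPM, and brain library 2 at 8.5 weeks for iqsec3.2 with 402 CPM. Brain library 3 at 8.5 weeks was low for dock4.1 with 272 CPM. In muscle, library 1 at 3.5 weeks was low for arhgap32 with 0.0 CPM, and library 3 at 3.5 weeks was low for acap2 with 156 CPM, dennd6b with 0.0 CPM and arhgef37 with 242 CPM.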

How the results depend on the processing

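Depth limits these results: circular counts of the set did not exceed 8 reads per library. Age differences of single circRNAs were therefore hard to detect, even large ones. Counts were simulated at an assumed spread with a 4-fold change at 14 against 3.5 weeks. Of changed circRNAs under 30 reads, edgeR called 10.3% in brain and 4.17% in muscle. A simulated 2-fold change of linear reads was called at 35.5% of changed positions in brain and 4.02% in muscle. Correlations of same-numbered libraries ran from -0.307 to 0.124. With so few libraries per group they cannot show whether the samples were paired. Under the replicate block the tissue difference in share of arhgef37 was -4.24 in log2 (edgeR adjusted p = 0.349). For circular reads it was -2.55 for dock9.1 and -3.62 for tiam2 (edgeR adjusted p = 0.438 for each). Age comparisons gave 0 calls in the set under every alternative that could be fitted. The interaction had no fit with a block, and a minimum of 30 reads left no member to test in some comparisons.

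Between tissues, 3 circRNAs were called on circular reads. The number was 6 on linear totals without TMM, 6 with TMM of the circular counts, 1 at a minimum of 30 reads (which leaves 3 to test) and 1 under the replicate block, and 2 to 4 with a library left out. The call on circular share (1) was 0 at a minimum of 30 reads, where arhgef37 is not tested, and 0 under the replicate block, and stayed at 1 with any library left out. Linear calls were 22, with 18 to 24 under the alternatives and 20 to 26 with a library left out. The summed circular reads were 0.552 times as high in brain as in muscle on the TMM scale, and 1.20 times as a share of all circular reads. The cause of the shifts under the block and the scalings was not tested.

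Directions turned as follows (log2). On linear totals the tissue difference of linear reads was 0.00124 for dock5, 0.19 for arhgef37, 0.68 for tbc1d15, 0.0454 for dock9.1 and 0.33 for dock9.2. In muscle at 14 against 3.5 weeks, circular reads of tiam2 were at 0.30 on linear totals, 0.30 with TMM of the circular counts and 0.0455 with the replicate block. At 14 against 8.5 weeks TMM of the circular counts gave 0.34 for arhgef37 and 0.29 for dock9.1, and the replicate block 0.0279 for dock9.1. The block gave shares of dock9.1 of 0.67 at 14 against 3.5 and 0.20 at 14 against 8.5 weeks. None of these age values passed.

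With a library left out, these ranges crossed 0. For circular reads they were -3.11 to 1.73 for rasgrp2 (brain, 14 against 3.5 weeks), -0.60 to 5.15 for the interaction of ralgapa2, and in muscle -1.59 to 0.71 (14 against 3.5), -0.36 to 0.28 (14 against 8.5) and -1.50 to 0.80 (8.5 against 3.5) for dock9.1 and -0.86 to 0.88 for tiam2 (14 against 3.5). For shares they were -3.13 to 1.40 for rasgrp2 (brain, 14 against 3.5), -2.44 to 0.16 for tiam2 between tissues, -0.0847 to 1.64 for tiam2 in muscle (14 against 3.5), and -1.60 to 2.00, -1.02 to 0.0428 and -1.05 to 2.55 for dock9.1 in muscle (14 against 3.5, 14 against 8.5 and 8.5 against 3.5).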

Other observations

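A further 10 circRNAs come from hosts that the deposited table lists by a LOC identifier and that the RefSeq gene table names as a gene of the same families. Rabep2 (LOC107376686), which binds Rab proteins of endosomes, had 32 circular reads in brain and 18 in muscle, and the exact 95% intervals of its circular share were 29.2% to 51.6% in brain and 30.1% to 62.8% in muscle. Its shares rest on 48 linear reads in brain and 21 in muscle. Muscle library 3 had 4 circular and 0 linear reads of it at 3.5 weeks, and 1 and 0 at 8.5 weeks. Among the 31, the highest share pooled over all libraries was 18.8%. The rabep2 circRNA has 1 end outside annotated genes, whereas all 31 have both ends in exons, so these shares are not from like positions. Arhgef15b (LOC107397292), a GEF, had 19 reads in brain and 1 in muscle, with a brain share of 21.6% (13.5% to 31.6%). The synaptic Ras GAP syngap1b (LOC107379150) had 2 circRNAs with 19 and 8 reads in brain and 0 in muscle each, over 577 and 420 linear reads in brain and 1 and 3 in muscle. Agap3 (LOC107383869), an Arf GAP, had 2 with 9 and 7 reads in brain and 0 in muscle each. Arhgef25a, rab25b, trioa and rapgef5a had 4, 4, 4 and 5 reads in brain and 0 in muscle. Between tissues 3 of the 10 were tested on circular reads and none was called (edgeR), beside 23.1% of all circRNAs tested. On linear reads with TMM factors 7 were higher in brain and 1, arhgef25a, lower, beside 47.9% higher and 24.8% lower of all positions tested. The 7 count both positions of syngap1b and both of agap3, and positions of the same host are not independent.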
